A study of Mus musculus with 3 samples.

Results

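The genes described are the 7 CDK inhibitors of the mouse together with Trp53, Mdm2 and Rb1, read in melan-a cells by RNA-seq. They were taken by name, with no threshold on their levels, and all 10 were found among the 22698 genes of the files. The inhibitors form a pair of families, the INK4 genes (Cdkn2a, Cdkn2b, Cdkn2c and Cdkn2d) and the CIP/KIP genes (Cdkn1a, Cdkn1b and Cdkn1c). Melan-a is an immortalized line of pigmented mouse melanocytes with the strain background C57BL/6J, and its source mice are labelled Ink4a-ARF-/-. The allele and the exons it lacks are not given in the sources used here. All 3 libraries, labelled replicates 1, 3 and 4, came from untreated cells of this 1 line, which the series calls bioreplicates and which were sequenced over several lanes each. The cells grew in culture medium with 10% fetal bovine serum, 200 nM of the phorbol ester TPA and 200 pM cholera toxin, all of which are part of the routine medium of these cells. There was no second condition and no wild-type line, so levels were compared between genes within a library and between the 3 libraries, and no test between groups was possible. A two-sided exact sign-flip test over 3 libraries cannot give a p below 0.25, so none was used.

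The INK4 proteins bind CDK4 and CDK6 and block their activity with D cyclins, whereas the CIP/KIP proteins bind complexes of cyclins with CDKs, including cyclin E with CDK2. Both families thereby keep the retinoblastoma protein RB active, which in turn holds the E2F transcription factors in check. Cdkn2a encodes an INK4 protein, p16INK4A, and from another first exon a protein of a different reading frame, p19ARF, which restrains MDM2, the ubiquitin ligase of p53. In cultured melanocytes these routes to RB and p53 are known as barriers to unlimited growth, and Cdkn2a is a gene of familial melanoma in humans.

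Levels are given in FPKM, that is fragments counted per gene and divided by both gene length and library size, as scaled and rounded to 2 decimals by the authors. The size of each library, after that scaling, was estimated from low values that fell on whole reads and came to between 47100000 reads in replicate 3 and 66300000 in replicate 4. For a gene of 1 kb, 3 reads were worth between 0.0452 and 0.0637 FPKM, and levels of at least 3 reads in all 3 libraries were called measurable. Of the 12 melanocyte markers, 11 reached 1 FPKM in every library, with Tyrp1 at 3144 and Dct at 1412 FPKM on average and Kit the exception at 0.68 FPKM. Among all genes, 44.1% reached that level in every library. Of 16 fibroblast, keratinocyte, blood and endothelial markers, Col1a1 alone reached 1 FPKM in every library, at 1.54 FPKM on average, and the summed level of these lists was between 1.62 and 1.97 FPKM for fibroblasts, 0.36 and 0.7 for keratinocytes, and 0.77 and 1.61 for blood and endothelium. Lum, Krt1, Krt14, Trp63, Ptprc, Cdh5 and Pecam1 were under 3 reads in each library.

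Starts of transcription at the inhibitor genes are shown first, because Cdkn2a has a pair of them and because a p53 element lies at one start of Cdkn1a. The windows are RefSeq sequences of the build GRCm38.p6, 300 bases from 250 before to 50 after and including the start, 5′ to 3′ on the strand of the gene, and 8 of the 10 genes had at least 1 such window. Capitals mark matches to an E2F word, a TFAP2 word or a p53 response element. The Cdkn2a window 1 lies at chr4:89294570-89294869 on the minus strand, at the start of the ARF-type transcript, and window 2 lies at chr4:89282143-89282442 on the same strand, at the start of the INK4A-type transcript. The Cdkn2b window is at chr4:89310983-89311282, also on the minus strand. The Cdkn1a window 1 is at chr17:29090729-29091028 on the plus strand.
Cdkn2a window 1: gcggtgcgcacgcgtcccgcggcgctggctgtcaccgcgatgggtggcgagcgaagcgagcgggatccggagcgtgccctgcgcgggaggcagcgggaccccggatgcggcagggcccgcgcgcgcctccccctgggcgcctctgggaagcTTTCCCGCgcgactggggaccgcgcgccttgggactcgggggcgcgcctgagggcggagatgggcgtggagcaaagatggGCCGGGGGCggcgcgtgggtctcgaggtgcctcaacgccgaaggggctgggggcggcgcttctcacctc
Cdkn2a window 2: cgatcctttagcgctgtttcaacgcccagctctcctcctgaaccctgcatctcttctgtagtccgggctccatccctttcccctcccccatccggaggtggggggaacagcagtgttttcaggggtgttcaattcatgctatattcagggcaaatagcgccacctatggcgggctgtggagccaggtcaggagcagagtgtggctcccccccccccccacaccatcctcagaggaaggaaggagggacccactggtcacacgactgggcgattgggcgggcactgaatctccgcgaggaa
Cdkn2b window 1: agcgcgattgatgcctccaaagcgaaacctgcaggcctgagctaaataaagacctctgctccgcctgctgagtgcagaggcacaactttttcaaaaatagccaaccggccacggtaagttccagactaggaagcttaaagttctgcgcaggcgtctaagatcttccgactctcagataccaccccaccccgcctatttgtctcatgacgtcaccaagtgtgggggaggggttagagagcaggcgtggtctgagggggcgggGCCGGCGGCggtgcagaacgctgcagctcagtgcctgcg
Cdkn1a window 1: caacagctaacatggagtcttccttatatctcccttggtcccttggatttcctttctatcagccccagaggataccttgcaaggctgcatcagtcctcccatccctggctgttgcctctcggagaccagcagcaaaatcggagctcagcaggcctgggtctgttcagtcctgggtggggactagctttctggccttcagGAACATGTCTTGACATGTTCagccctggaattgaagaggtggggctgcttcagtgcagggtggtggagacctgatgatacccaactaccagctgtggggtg

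The Cdkn2a starts differed in base composition, since the ARF-type window held 77% G and C with 45 CpG and the INK4A-type window 60.3% with 12 CpG. All 32851 windows of the RefSeq table were searched on both strands for the same letters. An E2F word (TTTCCCGC, TTTCGCGC, TTTGCCGC or TTTGGCGC) occurred in 2.26% of them, and among the 11 windows of these genes only in Cdkn2a window 1, as TTTCCCGC from -99 to -92 of the start. The TFAP2 word GCCNNNGGC, of the factor that the study is about, occurred in 16.6% of all windows and in 1 window each of Cdkn2a, Cdkn2b, Cdkn2d, Cdkn1b and Mdm2. In Cdkn2a window 1 it ran from -19 to -11 and overlapped a GC box (GGGCGG, in 35.7% of all windows), and in Cdkn2b it ran from 11 to 19. A p53 response element with at most 1 mismatch in its 20 letters was found in 29 windows, or 0.0883%, of which Cdkn1a window 1 was 1, with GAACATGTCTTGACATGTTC from -51 to -32 and 1 mismatch. Cdkn1a window 2, at chr17:29093519-29093818, held no such element. The longest coding transcript of Cdkn1a, of 1910 bases, begins in window 2, and a transcript of 748 bases begins in window 1. The E-box CACGTG, present in 7.15% of all windows, was found in Cdkn2c window 2 and in the Trp53 window. These are matches of letters, and no binding was measured in the files used here.

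All 10 genes were measurable in each of the 3 libraries, against 57.7% of the 22324 genes with an annotated length. At 1 FPKM or more in all 3 libraries there were 9 of the 10, against 44.1% of all 22698 genes, and Cdkn1c was the exception. The median of the 10 genes was 22.9 FPKM, and that of all genes 0.277 FPKM. By mean level the order was Cdkn1a, Trp53, Cdkn2b, Mdm2, Cdkn2c, Cdkn2a, Cdkn1b, Rb1, Cdkn2d and Cdkn1c, from 323 down to 0.47 FPKM. Of the 9 pairs of neighbours in that order, 6 had ranges over the 3 libraries that did not overlap. The ranges of Mdm2 and Cdkn2c overlapped, as did those of Cdkn2c and Cdkn2a, and in both pairs the gene with the higher mean was higher in 2 of the 3 libraries. Cdkn2a and Cdkn1b also overlapped in range, although Cdkn2a was the higher in 3 of 3 libraries, by a ratio of 1.24 ± 0.06 (SD, n = 3).

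**Figure D1:**
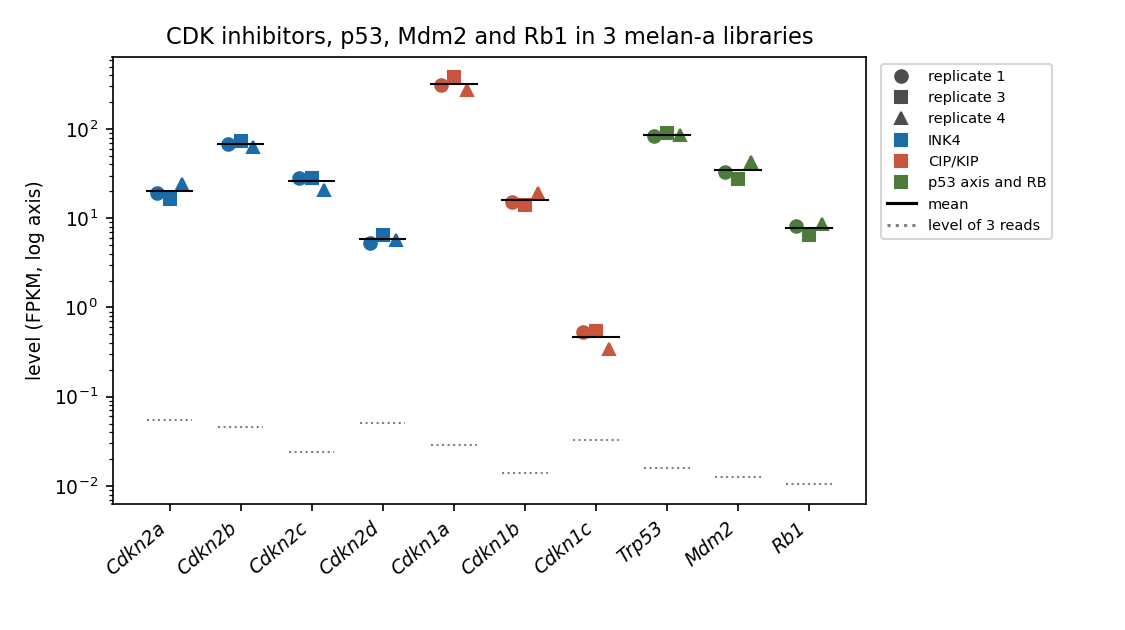
Level of each of the 10 genes in FPKM on a log axis, with 1 symbol per library, the mean as a black line and the level of 3 reads as a dotted line. Cdkn1a lies highest at 273.09 to 381.84 FPKM and Cdkn1c lowest at 0.34 to 0.54 FPKM, still above its dotted line.

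Cdkn2a, the gene named in the label, was measured in every library. It lies on the minus strand of mm9 chr4:88920377-88940557 (ENSMUSG00000044303) and stood at 19.24, 16.49 and 24.32 FPKM in replicates 1, 3 and 4, a mean of 20.02 ± 3.97 (SD, n = 3), which ranked it 3267 of 22698. Replicate 4 was the highest and replicate 3 the lowest, a ratio of 1.47. These values correspond to about 1213, 909 and 1887 reads, so counting error is small beside the spread. The mm9 annotation gives the gene 3 transcripts and 1170 exonic bases once overlaps are joined. Both ARF-type transcripts start in exon 1 at 88940238-88940523 or 88940557, the INK4A-type transcript starts in its own exon 1 at 88927890-88928096, and all 3 share exon 2 at 88922549-88922889 and an overlapping exon 3. First exons make up 527 of the joined bases, and the shared exons 643, or 55.0%. The deposited value is 1 sum over the gene, so it does not show which exons its reads came from, and it neither separates p16INK4A from p19ARF nor checks the genotype that the label gives.

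Cdkn2b, which encodes the INK4 inhibitor p15INK4B, lies 11640 bases from Cdkn2a at chr4:88952198-88956941 on the minus strand (ENSMUSG00000073802). It stood at 68.56, 73.95 and 62.3 FPKM in replicates 1, 3 and 4, a mean of 68.3 ± 5.83 (SD, n = 3). Its lowest library was thus above the highest library of the other INK4 genes. It made up 56.9% ± 2.0 (SD, n = 3) of the INK4 sum and exceeded Cdkn2a in each library, by 3.56-fold in replicate 1, 4.48-fold in replicate 3 and 2.56-fold in replicate 4. The 5 other genes listed around the locus had uneven levels. Mtap, the methylthioadenosine phosphorylase that is often lost together with CDKN2A in human tumours, was at 74.5 ± 7.36 FPKM and close to Cdkn2b. Klhl9, an adaptor of a ubiquitin ligase, was at 12.2 ± 2.31 and Focad at 1.71 ± 0.12 FPKM. Dmrta1, at 0.147 ± 0.050, and the neuronal RNA-binding protein gene Elavl2, at 0.0467 ± 0.015 FPKM, were measurable but far under 1 FPKM (SD, n = 3 throughout).

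Cdkn2c, for p18INK4C, lies at chr4:109333481-109339794 on the minus strand (ENSMUSG00000028551) and stood at 27.97, 28.53 and 20.85 FPKM in replicates 1, 3 and 4, a mean of 25.8 ± 4.28 (SD, n = 3). Replicates 1 and 3 were close to each other and replicate 4 was lower. Cdkn2d, for p19INK4D, a protein distinct from p19ARF despite the similar name, lies at chr9:21092907-21095653 on the minus strand (ENSMUSG00000066860). It was the lowest INK4 gene at 5.21, 6.43 and 5.67 FPKM, a mean of 5.77 ± 0.62 (SD, n = 3), and ranked 7045 of 22698. No library of Cdkn2d reached the level of any library of the other INK4 genes.

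Cdkn1a, for p21CIP1, the inhibitor best known as a p53 target, was the highest of all 7 inhibitors. It lies at chr17:29227924-29237667 on the plus strand of mm9 (ENSMUSG00000023067) and stood at 314.15, 381.84 and 273.09 FPKM in replicates 1, 3 and 4, a mean of 323 ± 54.9 (SD, n = 3). With rank 135 of 22698 it stood among the most abundant transcripts of these cells. Its lowest library was above the highest library of every other gene among the 10. Cdkn1b, for p27KIP1, lies at chr6:134870419-134875531 on the plus strand (ENSMUSG00000003031) and stood at 15.11, 14.02 and 19.03 FPKM, a mean of 16.1 ± 2.63 (SD, n = 3). Cdkn1a exceeded it by 20.8-fold in replicate 1, 27.2-fold in replicate 3 and 14.4-fold in replicate 4. Cdkn1c, for p57KIP2, an imprinted inhibitor, lies at chr7:150644255-150646955 on the minus strand (ENSMUSG00000037664). It stood at 0.53, 0.54 and 0.34 FPKM, a mean of 0.47 ± 0.11 (SD, n = 3), from about 55, 49 and 44 reads, which is above the measurable level but the lowest of the 10.

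Summed over its 4 genes, the INK4 family reached 121, 125 and 113 FPKM in replicates 1, 3 and 4, a mean of 120 ± 6.21 (SD, n = 3). That sum includes Cdkn2a, whose value does not separate p16INK4A from p19ARF, and no sum without Cdkn2a was made. The 3 CIP/KIP genes summed to 330, 396 and 292 FPKM, a mean of 340 ± 52.7. The CIP/KIP sum was the larger in 3 of 3 libraries, by 2.73-fold, 3.16-fold and 2.58-fold, a mean of 2.82 ± 0.30 (SD, n = 3), or -1.49 ± 0.15 on the log2 scale for INK4 over CIP/KIP. That direction rested on Cdkn1a, which made up 95.0% ± 1.5 of the CIP/KIP sum and 70.1% ± 2.9 of all 7 inhibitors. Without Cdkn1a the CIP/KIP sum was 16.5 ± 2.52 FPKM, and the INK4 sum exceeded it by 7.74-fold, 8.61-fold and 5.84-fold in replicates 1, 3 and 4, or 2.87 on the log2 scale. By the median over the genes of a family in place of the sum, INK4 was also the higher, at 22.9 against 16.1 FPKM. Without Cdkn2b the log2 ratio of the sums moved to -2.71. These 3 ways of counting were added after the values had been seen.

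**Figure D2:**
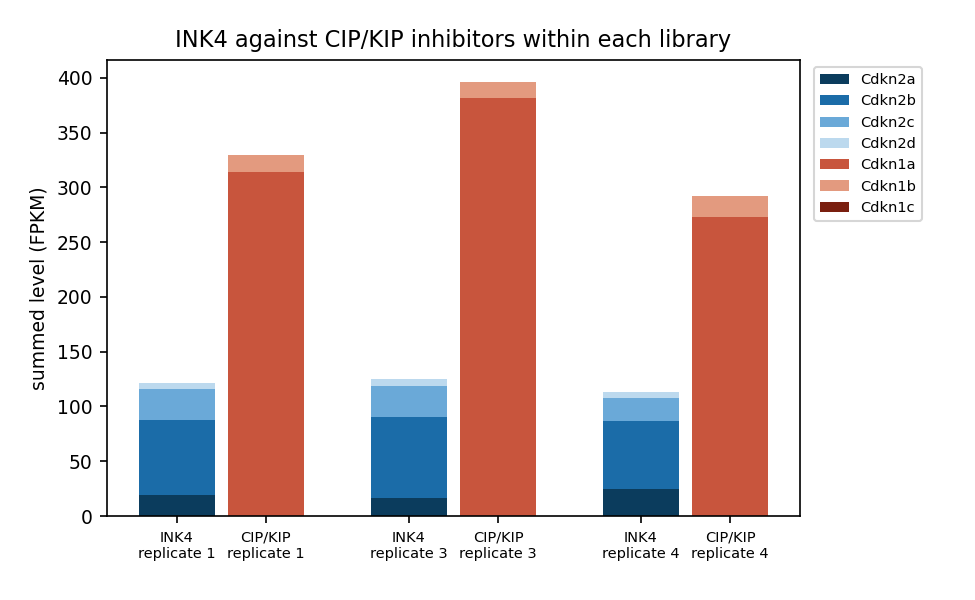
Summed FPKM of the INK4 genes (blue) and the CIP/KIP genes (red) in each library, stacked by gene from 0. The red bars, 292 to 396 FPKM, consist almost wholly of Cdkn1a, and Cdkn2b is the largest part of each blue bar.

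The targets of the inhibitors were all present. Cdk4 was at 122.02, 131.62 and 116.51 FPKM in replicates 1, 3 and 4 and Cdk6 at 6.86, 6.26 and 6.66 FPKM, so that of the kinases that INK4 proteins bind Cdk4 was the higher, by 18.8-fold ± 2.0 (SD, n = 3). The sum of both was 1.08 ± 0.02 times the INK4 sum and was the larger in 3 of 3 libraries, although these are RNA levels and not amounts of protein. That INK4 sum includes Cdkn2a, whose value does not separate p16INK4A from p19ARF and does not check the labelled Ink4a-ARF-/- genotype. Without Cdkn2a the ratio would be larger, by an amount that was not computed. Of their partners, Ccnd1 was at 941 ± 173, Ccnd3 at 378 ± 78.7 and Ccnd2 at 198 ± 4.75 FPKM (SD, n = 3), each above every INK4 gene. Cdk2, a target of the CIP/KIP proteins, was at 51.1 ± 6.86 FPKM and below Cdkn1a in each library. Its partners ranged from Ccna2 at 64.5 ± 8.31 through Ccne1 at 21.8 ± 0.72 to Ccne2 at 6.51 ± 1.52 FPKM, and Cdc25a, a phosphatase that activates CDK2, stood at 6.92 ± 0.83 FPKM (SD, n = 3). All 10 genes of this list were at 1 FPKM or more in all 3 libraries, against 44.1% of all genes, with a median of 57.8 FPKM.

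Regulators of p27 turnover and transcription were likewise present, 9 of 9 at 1 FPKM or more in all 3 libraries, against 44.1% of all genes. Their median was 20.6 FPKM. Skp1a at 78.0 ± 10.99 and Cks1b at 56.9 ± 2.27 FPKM, parts of or partners to the ligase that marks p27 for degradation, and the deubiquitinase gene Usp19 at 24.1 ± 1.24 were the highest. The substrate-binding subunit Skp2, at 2.89 ± 0.65, and the transcription factor Foxo1, at 7.80 ± 0.87 FPKM, were the lowest (SD, n = 3). Of the genes known to repress or activate Cdkn2a, 16 of 16 were at 1 FPKM or more in all 3 libraries, against the same 44.1%. Their median was 11.002 FPKM. The T-box repressor Tbx2 was the highest at 69.4 ± 16.5 FPKM, followed by Id1 at 28.0 ± 1.82 and the activator Ets1 at 25.6 ± 2.23. Tbx3, a relative of Tbx2, was the lowest at 2.18 ± 0.08, next to the histone demethylase gene Kdm2b at 2.87 ± 0.29 FPKM (SD, n = 3).

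Trp53, the gene for p53, lies at chr11:69393861-69405375 on the plus strand (ENSMUSG00000059552) and stood at 83.11, 90.53 and 85.32 FPKM in replicates 1, 3 and 4, a mean of 86.3 ± 3.81 (SD, n = 3). It ranked 720 of 22698 and had the smallest spread of the 10 genes, with a coefficient of variation (CV, the SD as a share of the mean) of 4.41%. Mdm2, whose protein marks p53 for degradation and which is itself a p53 target, lies at chr10:117125944-117147814 on the minus strand (ENSMUSG00000020184). It stood at 32.73, 27.46 and 42.59 FPKM, a mean of 34.3 ± 7.68 (SD, n = 3), highest in replicate 4 and lowest in replicate 3. Trp53 exceeded Mdm2 in 3 of 3 libraries, by 2.54-fold, 3.30-fold and 2.003-fold, or -1.36 ± 0.36 on the log2 scale for Mdm2 over Trp53. With the length of the longest coding transcript in place of the length the values rest on, that ratio moved to -1.78. Cdkn1a exceeded Trp53 by 3.78-fold, 4.22-fold and 3.20-fold in the same libraries, and Mdm2 by 9.60-fold, 13.9-fold and 6.41-fold.

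Of 26 known p53 targets, 22 (84.6%) were at 1 FPKM or more in all 3 libraries, against 44.1% of all genes. On that list 24 were measurable, against 57.7% of the genes with an annotated length, and the median was 9.06 FPKM. Cdkn1a and Mdm2 are themselves on that list. After Cdkn1a the highest were Phlda3, an inhibitor of AKT signalling, at 152 ± 42.1 and the cyclin G gene Ccng1 at 146 ± 16.5 FPKM. The apoptosis genes on the list differed widely. Bax, at 138 ± 20.1, and Ei24, at 88.6 ± 12.5 FPKM, were high, while the death receptor gene Fas was at 0.41 ± 0.095 and Pmaip1, for NOXA, at 0.04 ± 0.026 FPKM (SD, n = 3). Others lay between these, among them Tnfrsf10b at 19.8 ± 2.74, Bbc3 at 4.12 ± 0.24 and Apaf1 at 3.74 ± 0.75 FPKM (SD, n = 3). Perp, which encodes a membrane protein of desmosomes, was listed at 0.01, 0 and 0.01 FPKM and under 3 reads in each library, and Dram1, a gene of autophagy, was at 0.587 ± 0.031 FPKM.

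Among 17 relatives and regulators of p53, 15 (88.2%) were at 1 FPKM or more in all 3 libraries, against 44.1% of all genes. Their median was 4.07 FPKM. The relatives were low, since Trp63 was listed at 0 in each library and Trp73 at 0.04, 0.02 and 0.03 FPKM. Rpl23, a ribosomal protein gene, at 91.5 ± 3.87 and Npm1, for nucleophosmin, at 69.9 ± 18.8 FPKM were the highest. Both have processed copies in the genome that may share reads with them, so their levels are uncertain. Usp7, for a deubiquitinase of p53 and MDM2, was at 13.1 ± 1.11 FPKM (SD, n = 3). Mdm4, the partner of MDM2, was not chosen by the same rule as the others and is named because its spread was large. It stood at 3.21, 2.17 and 6.84 FPKM in replicates 1, 3 and 4, with replicates 3 and 4 at its extremes as for Mdm2. The GC contents of Mdm4 and Mdm2, 42.8% and 46.2%, lie under the median of 50.5% of expressed genes. Across those genes the difference between replicates 3 and 4 followed GC content, as described below. The log2 ratio of replicate 3 to replicate 4 was -1.66 for Mdm4 and -0.63 for Mdm2. Whether GC content has a part in the spread of Mdm4 was not tested, and neither was a link between Mdm4 and Mdm2.

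Rb1 lies at chr14:73583480-73725629 on the minus strand (ENSMUSG00000022105) and stood at 8.27, 6.52 and 8.66 FPKM in replicates 1, 3 and 4, a mean of 7.82 ± 1.14 (SD, n = 3). It ranked 6123 of 22698. Of its exonic bases, 14.9% are overlapped on the other strand by Lpar6 and Rcbtb2, and whether reads were counted by strand is not given in the sources used here. The exons of the other 9 genes overlap no other gene in the annotation. The RB relatives Rbl1, for p107, and Rbl2, for p130, stood at 7.92 ± 1.75 and 13.4 ± 1.24 FPKM (SD, n = 3). Rb1 amounted to 0.403, 0.346 and 0.354 times their sum, or -1.45 ± 0.12 on the log2 scale. Rb1 and Rbl1 overlapped in range, while each library of Rbl2 was above each library of Rb1.

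All 12 genes for RB relatives, E2F and DP factors were at 1 FPKM or more in all 3 libraries, against 44.1% of all genes. Their median was 10.0 FPKM. E2f4 at 28.2 ± 0.64 and E2f6 at 23.5 ± 1.12 FPKM, which encode factors of repression, were the highest, followed by the activator E2f1 at 21.2 ± 4.83. The DP partners differed, with Tfdp1 at 20.2 ± 1.24 and Tfdp2 at 2.91 ± 0.42 FPKM. E2f8 at 12.2 ± 1.25 and E2f7 at 3.44 ± 0.33 FPKM are the atypical members. E2f3 stood at 6.67 ± 0.20, E2f5 at 6.18 ± 0.80 and E2f2 at 1.49 ± 0.22 FPKM, the lowest of the list (SD, n = 3). Of the E2F target genes, 18 of 18 were at 1 FPKM or more in all 3 libraries, against the same 44.1%, with a median of 26.95 FPKM. Pcna, the sliding clamp of DNA replication, stood highest at 68.4 ± 2.11 FPKM, above Ccna2 and above the thymidine kinase gene Tk1 at 50.4 ± 3.42. The lowest was the replication licensing gene Cdc6 at 3.89 ± 0.26 FPKM (SD, n = 3).

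Of 13 matched genes of secretion and nuclear structure that are used to describe senescent cells, 7 were at 1 FPKM or more in all 3 libraries. That is 53.8%, near the 44.1% of all genes, and the median was 12.4 FPKM. Igfbp7 at 778 ± 43.6, the chromatin protein gene Hmga1 at 212 ± 59.9 and Igfbp3 at 53.01 ± 4.78 FPKM were the highest (SD, n = 3). The cytokine gene Il1a and the protease gene Mmp3 were listed at 0 in each library.

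**Figure D3:**
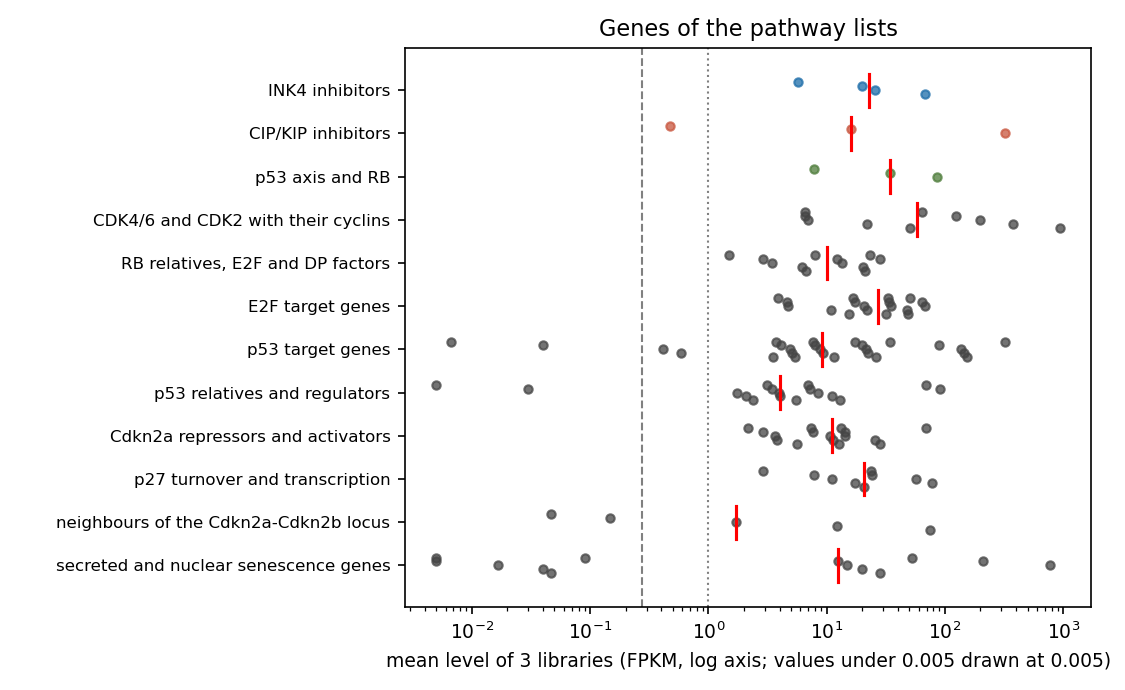
Mean FPKM over the 3 libraries of each gene of the lists on a log axis, 1 point per gene, with the list's median in red, the median of all genes (0.277 FPKM) dashed and 1 FPKM dotted. The lists of CDKs and cyclins, RB relatives and E2F factors, E2F targets, Cdkn2a regulators and p27 regulators lie wholly to the right of 1 FPKM. So do the INK4 inhibitors and the list of p53, Mdm2 and Rb1. Lists that extend below 1 FPKM are the CIP/KIP inhibitors, p53 targets, p53 relatives and regulators, locus neighbours and senescence genes.

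For 4 of the genes, those with the nearest levels were looked up among 158 genes of all lists, by Euclidean distance of log2(FPKM + 0.1) over the 3 libraries. Nearest to Cdkn2a were Cul1, a scaffold of ubiquitin ligases, at a distance of 0.115 and Tnfrsf10b, a death receptor, at 0.254. Nearest to Cdkn1a were the cyclin gene Ccnd3 at 0.405 and the melanocyte factor Sox10 at 0.934. Trp53 lay nearest to Rpl23 at 0.229 and Ei24 at 0.255, and Rb1 to its relative Rbl1 at 0.187 and to Sesn1 at 0.201. With 3 libraries this distance mostly reflects the mean level.

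The libraries differed along a common line. Across 10006 genes at 1 FPKM or more in all libraries, which are not independent replicates, the log2 ratio of replicate 3 to replicate 4 rose with the GC content of the longest coding transcript, with a Spearman's rho of 0.78. Of the 10 genes, 6 had the larger value in replicate 3 and 4 had it in replicate 4. Over all genes 6559 were higher in replicate 3 and 6826 were higher in replicate 4. The 6 genes had GC contents from 54.0% to 59.7%. Of the 4 that were higher in replicate 4, Rb1, Cdkn1b and Mdm2 had GC contents of 41.2%, 43.1% and 46.2%. Cdkn2a was the other, with a log2 ratio of -0.56 at 57.7%, and its remaining transcripts had 58.0% and 60.2%, whereas Cdkn2c at 58.0% (44.8% in its shorter transcript) had a log2 ratio of 0.45. After the smooth relation with GC content was removed, the CV fell in 8 of the 10 genes, a count that was not made over all 10006 genes. The median CV of the 10 genes went from 16.5% to 7.64%, beside 11.4% to 7.24% for all 10006 genes. Cdkn2b then varied by 2.02% and Cdkn1a by 8.72%. The CV of Trp53 went from 4.41% to 5.81%. That of Cdkn2a went from 19.8% to 33.8%, a value exceeded by 115 of the 10006 genes, or 1.15%, and its adjusted levels were 18.9, 14.5 and 28.1 FPKM in replicates 1, 3 and 4. The adjusted values of Cdkn2a rest on the GC content of its annotated transcript. The exons lacking under the labelled Ink4a-ARF-/- genotype are not given in the sources used here. The GC content of the RNA that was read is therefore not known. What set Cdkn2a apart from the line was not tested.

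**Figure D4:**
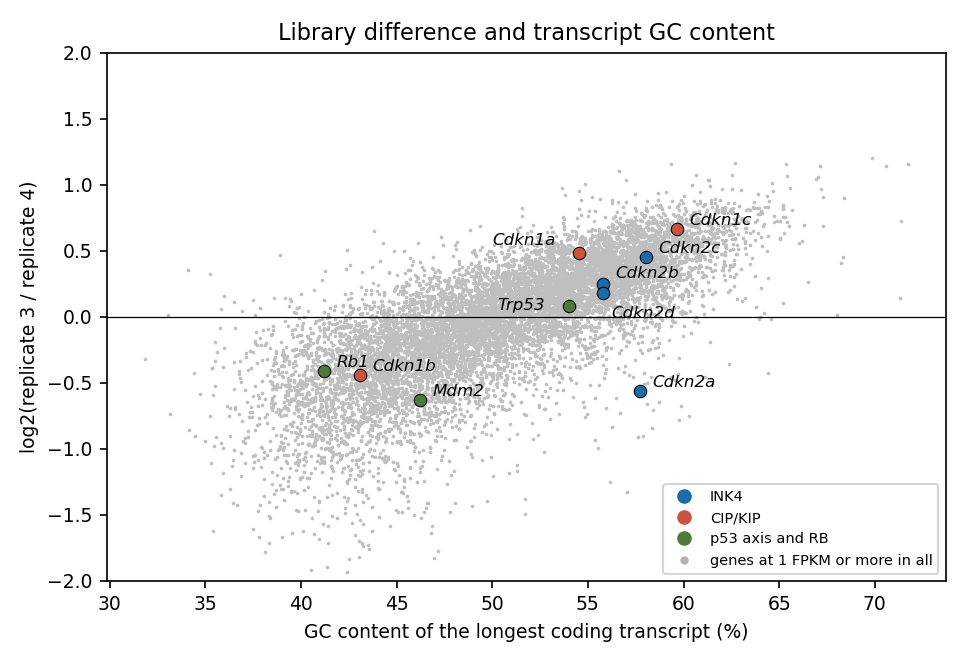
Log2 ratio of replicate 3 to replicate 4 against the GC content of the longest coding transcript in percent, for 10006 genes (grey) and the 10 genes described (coloured by family), with 4 genes outside the drawn range of -2 to 2. The coloured points follow the grey band except Cdkn2a, which lies below it at -0.56.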

How the data were processed

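RNA-seq of untreated melan-a cells was analysed in 3 libraries. The authors deposited 1 FPKM value per gene and library for 22698 Ensembl genes, after TMM scaling of the libraries and rounded to 2 decimals. Libraries were made with a stranded mRNA kit. The authors trimmed the 10 5'-most bases, aligned reads to mm9 with STAR 2.3.0e, removed rRNA reads with RSeQC 2.3.7 and counted on Ensembl release 67 with HTSeq 0.5.3p3. The submitters' processing notes also name CASAVA 1.8.2, SAMtools and edgeR. The gene length behind FPKM is not given in the sources used here, and it affects comparisons between genes. TMM (trimmed mean of M) scaling and gene length do not correct for GC content.

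From these values, scaled library sizes of 53900000, 47100000 and 66300000 reads (replicates 1, 3 and 4) were estimated from 141, 165 and 86 low genes, whose values then lay 0.0503, 0.0532 and 0.0605 reads from whole numbers on average. The estimate was tested on simulated data. Read numbers are estimates. Symbols, exons and GC content were taken from Ensembl release 65 on mm9, in which 22324 genes matched and 374 did not, and GC was removed by a lowess fit (fraction 0.3). Promoter windows came from RefSeq on GRCm38.p6 and were not combined with mm9 positions. Windows were not at hand for Cdkn1c and Rb1. The genes and the 16 lists were chosen with earlier results of these data known. Named from each list were its 3 highest and 2 lowest genes and those under 3 reads in each library, all genes of the lists of CDKs with cyclins, of RB relatives with E2F and DP factors and of locus neighbours, and the nearest genes. Of these, 1 gene is not reported here. Mdm4, Dram1 and Fas were added after values were seen. Bax, Bbc3 and Apaf1 are also outside this rule. Glb1 matched more than 1 identifier and was left out. Scripts used statsmodels 0.14.6, pandas 2.3.3, numpy 2.4.6, matplotlib 3.10.9 and scipy 1.17.1 under Python 3.11.15.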

Additional observations from a re-analysis of the deposited data

How the results depend on the processing

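The log2 ratio of the INK4 sum to the CIP/KIP sum was -1.49 with all genes, 2.87 without Cdkn1a, 0.52 by the median over genes and -2.71 without Cdkn2b, and these 3 alternatives were chosen after seeing the data. With the length of the longest coding transcript the log2 ratio of Mdm2 to Trp53 was -1.78 in place of -1.36, and this follows from the lengths used. Of 46 ratios and counts under alternatives, the other 42 stayed within 1 SD or, for counts, within 1.5 times. Many of these settings could not have failed. With 3 libraries, leaving 1 out or taking the median cannot move a mean ratio by 1 SD. Leaving 1 out cannot lower a count, and the floor of 3 reads removed no inhibitor gene. The 42 therefore overstates how far stability was tested. Leaving out each replicate in turn gave -1.55 to -1.41 for the ratio of the families, -1.53 to -1.17 for Mdm2 over Trp53 and -1.52 to -1.40 for Rb1 over its relatives. The p53 targets at the threshold numbered 22 to 23. Of 60 mean levels of single genes, 50 stayed within 1 SD, and the other 10 all came from rescaling each library to the same sum, which multiplied levels by 2.63 to 2.67. That split was largely fixed in advance. A left-out library or the median could not move these means by 1 SD either. The GC adjustment acts on deviations from each gene's own mean, and a rescaling of that size exceeds the SD of each gene. These counts are therefore no measure of stability. The order of the 10 genes was the same under each left-out replicate, the GC adjustment and the other length. No paired analysis was possible because there is 1 group. With 3 libraries of 1 line, the spread is that between these cultures and libraries only, levels between genes rest on a gene length that is not given in the sources used here, and estimated reads and floors cover counting error only.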
